A study of Mus musculus with 17 samples.

Results

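The genes described here are 8 mucins and secreted proteins of duct lumens, Muc1, Muc4, Muc16, Muc20, Sftpd, Tff2, Tff3 and Chga, measured in mouse liver cells of 5 kinds on 17 one-colour microarrays. A probe was selected on its name: it was taken when the gene name in the scanner files was one of these symbols, which gave 11 probes of the 39429 on the array. Muc4, Muc20 and Sftpd each had a pair of probes. All 8 genes passed the filter on dim probes, among 25977 genes kept. The genes were chosen by a reading of earlier results of these same arrays, and which levels or differences led to each choice is not recorded. Their levels and differences are therefore a description, and the adjusted p-values below give only each gene's place in a fit across all genes.

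Transmembrane mucins are long glycoproteins with heavy O-glycosylation that line the luminal side of epithelial ducts, and secreted proteins such as trefoil factors and collectins are found with them in the mucus layer. The intrahepatic bile duct is lined by cholangiocytes, which normally form a thin mucosal coat, while hepatocytes secrete into bile canaliculi and plasma. Mucins and trefoil factors are known to increase in bile duct epithelium under injury and inflammation.

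Of the groups, 3 arrays held cells differentiated in vitro towards cholangiocytes, 4 held cells differentiated in vitro towards hepatocytes, 2 held primary cholangiocytes, 4 held primary hepatocytes and 4 held undifferentiated adult hepatic progenitor cells. All came from one strain, labelled Foxl1-CRE; RosaYFP, made by crossing Foxl1-CRE mice with Rosa26R reporter mice, and the offspring were 6 to 10 weeks old. The Foxl1 promoter drives the Cre in this strain, and the labels give every group the same strain. The design sets the in vitro differentiated cells against the primary cells. No label ties a replicate to an animal or a culture of its own. The p-values therefore measure array-to-array spread within a group, which may be technical. The 2 primary cholangiocyte arrays are numbered 3 and 4 in the labels.

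Levels are given as log2 of the processed intensity minus log2 of that array's 75th percentile. Each unit is a doubling, and levels of different probes are not set against each other. That percentile lay between 1740 and 2010 intensity units on cholangiocyte-condition arrays, 1900 and 2190 on hepatocyte-condition arrays, 2680 and 2840 on primary cholangiocyte arrays, 544 and 983 on primary hepatocyte arrays and 2100 and 2530 on undifferentiated arrays. Between 23896 and 29227 probes were well above background on an array. The summed level of 12 hepatocyte markers was 4260 to 6120 times the 75th percentile in primary hepatocytes, 302 to 1060 in hepatocyte-condition cells, and at most 128 in the other groups. In hepatocyte-condition cells 2 of these 12 were called higher than in undifferentiated cells, where 15.3% of all genes were called. Against primary hepatocytes 10 were called lower, with a median difference of -6.73, where 59.7% of all genes were called. The summed level of 14 cholangiocyte markers was 99.3 to 173 in cholangiocyte-condition cells, 95.3 to 122 in hepatocyte-condition cells, 190 to 242 in primary cholangiocytes, 15.9 to 20.9 in primary hepatocytes and 110 to 191 in undifferentiated cells. The median difference of these 14 markers in cholangiocyte-condition against undifferentiated cells was 0.01. Against primary cholangiocytes 2 were higher, Spp1 among them, 5 were lower and 7 were not called. The keratin Krt19, a bile duct marker, read 7.30 and 6.69 in primary cholangiocytes. The adhesion protein Epcam, another duct marker, read -6.24, -7.25 and -6.36 in cholangiocyte-condition cells, against 3.06 and 2.23 in primary cholangiocytes. Its 1 reading of -7.25 was not well above background. Krt7, another keratin among the 14, was at least 1060-fold higher in hepatocyte-condition cells than in primary hepatocytes. In primary cholangiocytes it was at least 3140-fold higher than in primary hepatocytes. Of the 14 markers 6 were higher and 3 lower in the first of these comparisons, and 8 were higher and 2 lower in the second. Over all genes 59.7% and 49.6% were called. In bulk RNA, fewer cells of a type and less RNA per cell cannot be told apart.

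The probe pairs matter below because the probes of one gene did not always read alike. The first 30 bases of each of the 6 probes of the paired genes, 5′ to 3′ as the files give them and with no base marked, were:
Muc4 probe 1: ctaacttgtcatgggtactccagcccaaga
Muc4 probe 2: catggtggccaaatatacagatggatgggt
Muc20 probe 1: gctgacctcttttcagagatgtccctcaca
Muc20 probe 2: cccagccgctttatttcctgaaataacaac
Sftpd probe 1: atggaggccttaaaaggaaaactacagcgt
Sftpd probe 2: aacaatggtggagcagagaactgtgtggag

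The files place the Muc4 probes at chr16:32774896-32774955 and chr16:32782278-32782337, the Muc20 probes at chr16:32786143-32786202 and chr16:32777512-32777571, and the Sftpd probes at chr14:41987767-41987826 and chr14:41985664-41985723, on a genome build that they do not name. In RefSeq's annotation Muc4 and Muc20 lie on opposite strands and overlap. No label says that labelling kept the strand, so signal of these neighbours cannot be assigned to 1 of them with certainty. The files do not say which exon or untranslated region a probe lies in.

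Muc1, a transmembrane mucin of glandular and ductal surfaces, was far higher in primary cholangiocytes than anywhere else. Its levels were -7.25, -5.49 and -7.85 in cholangiocyte-condition cells, where only array 2 was well above background. They were -5.31, -4.02, -4.67 and -4.34 in hepatocyte-condition cells and 4.04 and 1.90 in primary cholangiocytes. They were -4.17, -4.17, -6.12 and -4.61 in primary hepatocytes, the -6.12 not well above background, and -6.17, -6.05, -6.54 and -5.91 in undifferentiated cells. The lowest primary cholangiocyte array lay above every other array, and the other 4 groups overlapped their neighbours in the order of means. In intensity units the probe read 10000 to 46700 in primary cholangiocytes, against 8.73 to 40.3 in cholangiocyte-condition cells.

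Muc1 was 912-fold lower in cholangiocyte-condition cells than in primary cholangiocytes (log2 difference -9.83 ± 0.74 SE, adjusted p = 1.16e-06). Primary cholangiocytes were 213-fold higher than primary hepatocytes (7.74 ± 0.71, adjusted p = 6.26e-07) and 563-fold higher than undifferentiated cells (9.14 ± 0.71, adjusted p = 1.17e-06). Between the cultures Muc1 was 4.85-fold lower in cholangiocyte-condition cells than in hepatocyte-condition cells (-2.28 ± 0.62, adjusted p = 0.0238). That call was lost, at adjusted p 0.054 to 0.111, without hepatocyte-condition array 2 or 4 or cholangiocyte-condition array 1 or 3, and with the slide as a fixed block (-2.15, adjusted p = 0.054). The call passed in 13 of the 20 alternatives run, with differences between -2.96 and -0.35 and an adjusted p up to 0.572. Within slides 1, 4 and 5 the difference was -3.83, -0.82 and -1.94. In hepatocyte-condition cells Muc1 lay 1.58 ± 0.58 above undifferentiated cells with no overlap, at adjusted p = 0.0831. This rise passed in 3 of the 21 alternatives run, and the authors' deposited table gave it a false discovery rate of 3.69%.

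**Figure D1:**
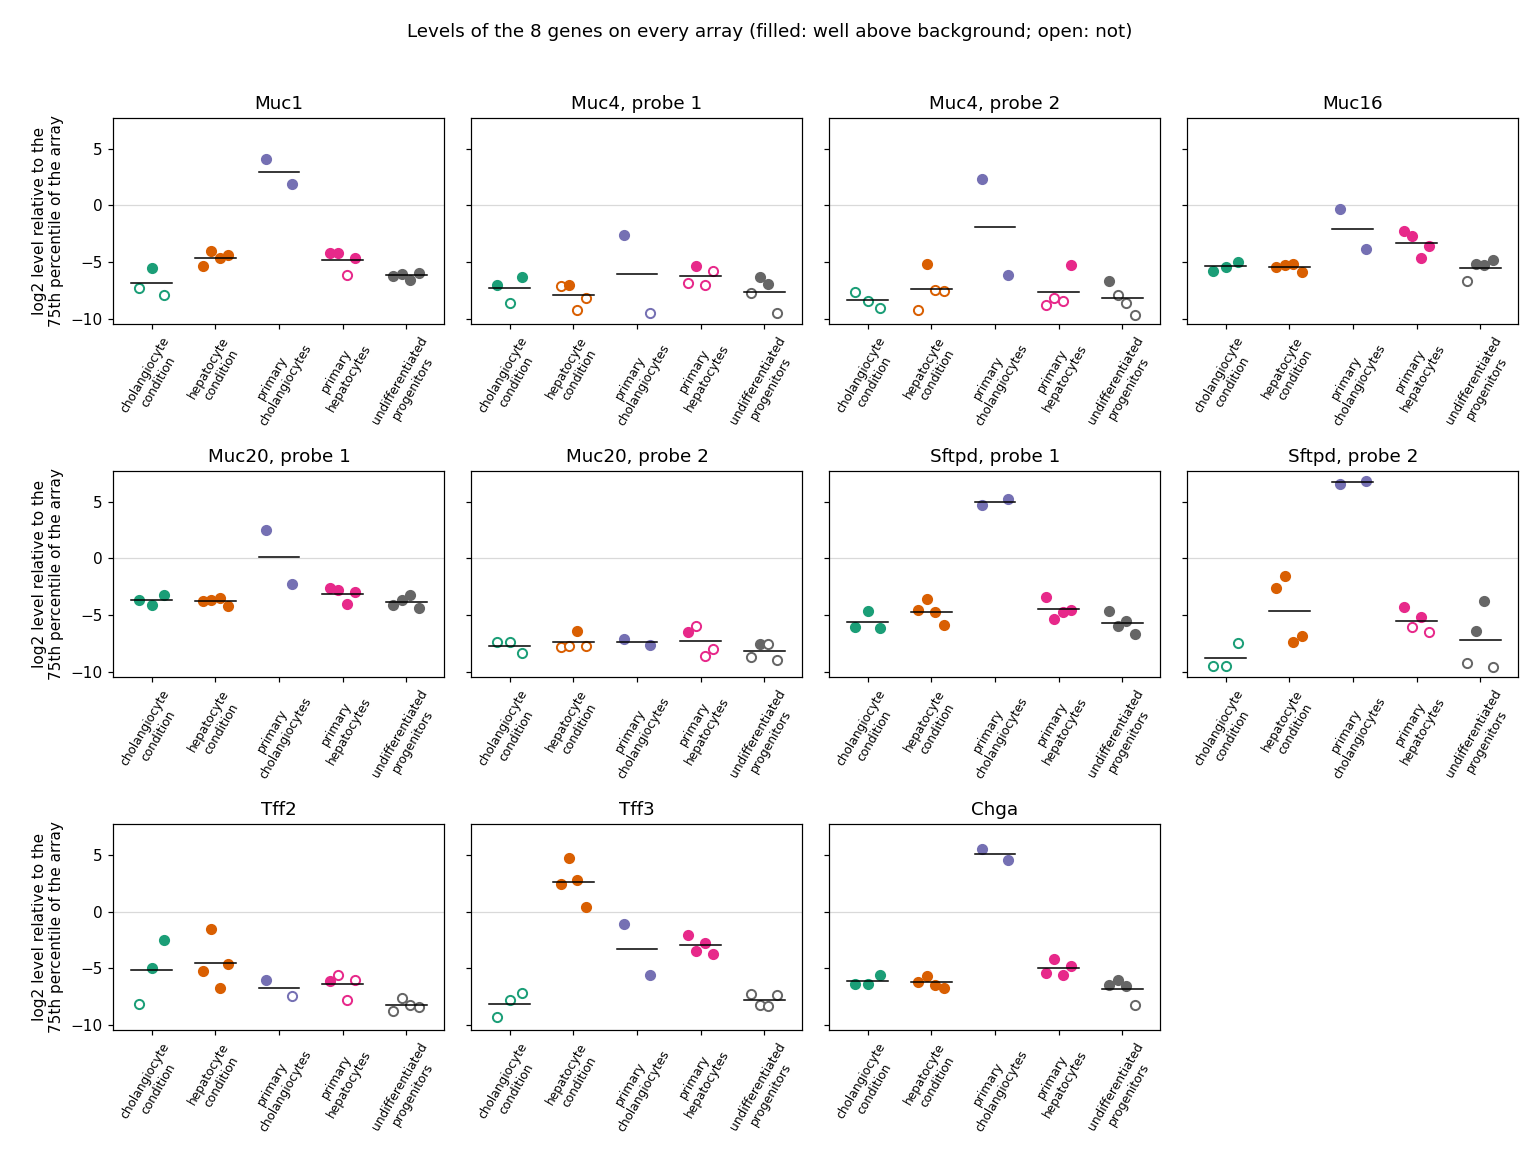
Level of each of the 11 probes on every array, as log2 intensity relative to the array's 75th percentile, by group; filled points are well above background, open points are not, and black lines are group means. Muc1, Sftpd and Chga stand high on both primary cholangiocyte arrays, and Tff3 stands high on the 4 hepatocyte-condition arrays, between 0.41 and 4.72.

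Muc4, a large transmembrane mucin that can bind ErbB2, was bright on 1 array. Probe 2 read 2.36 on primary cholangiocyte array 3 and -6.13 on array 4. It was not well above background on any cholangiocyte-condition array (-7.65, -8.39 and -9.03), and was above it on 1 of 4 arrays in each of the other groups. With probe 2, Muc4 in cholangiocyte-condition cells was at least 42.4-fold below the mean of the 2 primary cholangiocyte arrays (-6.47 ± 1.86, adjusted p = 0.0248 over all probes). That mean, -1.89, joins arrays that lay 358-fold apart, so the bound does not hold for array 4 alone. The authors' deposited table gave this probe a false discovery rate of 10.59%. Array 4 of the primary cholangiocytes alone lay within the range of the hepatocyte-condition arrays, whose brightest probe 2 reading was -5.18.

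Probe 1, which had the higher mean over all arrays and stood for the gene in the fit, read -2.59 and -9.49 in primary cholangiocytes, the second not above background. It read -7.04, -8.59 and -6.27 in cholangiocyte-condition cells, and the 2 groups overlapped. The difference was -1.26 ± 1.51 (adjusted p = 0.65). It was 2.19 without primary cholangiocyte array 3 and -4.71 without array 4 (adjusted p = 0.017), so its sign depended on which of the 2 arrays was kept.

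Muc16, a very long transmembrane mucin known as CA125 in humans and as the binding partner of mesothelin, was highest in primary cells. It read -0.30 and -3.82 in primary cholangiocytes, and -2.22, -2.70, -4.65 and -3.59 in primary hepatocytes. The cultures were lower, at -5.77, -5.38 and -4.96 in cholangiocyte-condition cells and -5.44, -5.28, -5.15 and -5.86 in hepatocyte-condition cells. Undifferentiated cells read -6.66, -5.18, -5.26 and -4.76, the first not above background. The cholangiocyte-condition, hepatocyte-condition and undifferentiated arrays overlapped each other, as did the 2 primary groups.

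Muc16 was 9.88-fold lower in cholangiocyte-condition cells than in primary cholangiocytes (-3.30 ± 0.87, adjusted p = 0.0161) and 10.6-fold higher in primary cholangiocytes than in undifferentiated cells (3.40 ± 0.82, adjusted p = 0.0103). Without primary cholangiocyte array 3 these differences were -1.54 (adjusted p = 0.248) and 1.64 (adjusted p = 0.208). With the slide as a fixed block they were -3.47 (adjusted p = 0.0568) and 3.47 (adjusted p = 0.0548), and within slide 4 and slide 3 they were -1.55 and 6.36. Hepatocyte-condition cells were 4.41-fold lower than primary hepatocytes (-2.14 ± 0.67, adjusted p = 0.0137), and primary hepatocytes were 4.51-fold higher than undifferentiated cells (2.17 ± 0.67, adjusted p = 0.0115). In intensity units the ranges were 32.7 to 61.9 in hepatocyte-condition cells, 31.4 to 210 in primary hepatocytes and 23.7 to 77.6 in undifferentiated cells, so the unscaled readings overlapped. The median gene lay 0.44 higher in primary hepatocytes than in undifferentiated cells on the scaled levels. Both calls with primary hepatocytes passed under all 21 alternatives run, median scaling and quantile normalization among them. Hepatocyte-condition minus primary hepatocyte levels lay between -2.59 and -1.43, and primary hepatocyte minus undifferentiated levels between 1.46 and 2.63. The part of the lower 75th percentile of the primary hepatocyte arrays in these differences was not tested beyond those alternatives.

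Muc20, a transmembrane mucin known to bind the hepatocyte growth factor receptor Met, read 2.51 and -2.28 with probe 1 in primary cholangiocytes. In cholangiocyte-condition cells it read -3.67, -4.13 and -3.25. Hepatocyte-condition cells read -3.78, -3.62, -3.47 and -4.20. The culture values lay below both primary cholangiocyte arrays and overlapped each other. Primary hepatocytes read -2.61, -2.76, -4.01 and -2.98, just under primary cholangiocyte array 4, and undifferentiated cells read -4.06, -3.67, -3.22 and -4.35. The standard deviation of probe 1 was 3.39 in primary cholangiocytes and 0.31 to 0.63 in the other groups, and the fit shares 1 spread.

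Muc20 was 13.9-fold lower in cholangiocyte-condition cells than in primary cholangiocytes (-3.80 ± 0.93, adjusted p = 0.0108). Primary cholangiocytes were 9.21-fold higher than primary hepatocytes (3.20 ± 0.88, adjusted p = 0.00769) and 15.4-fold higher than undifferentiated cells (3.94 ± 0.88, adjusted p = 0.0064). Without primary cholangiocyte array 3 the 3 differences were -1.40 (adjusted p = 0.111), 0.81 (adjusted p = 0.238) and 1.55 (adjusted p = 0.0747). Muc20 probe 2 read -7.11 and -7.62 in primary cholangiocytes, both above background, and lay at -5.92 or below on every array. With probe 2 none of the 8 comparisons passed, and primary cholangiocytes minus primary hepatocytes gave -0.15 ± 0.68.

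Sftpd, surfactant protein D, a collectin of the lung that binds microbial sugars and is also made by other ducted epithelia, was far higher in primary cholangiocytes than in any other group. Probe 1 read 4.73 and 5.24 in primary cholangiocytes, or 75500 to 101000 intensity units. It read -6.06, -4.60 and -6.12 in cholangiocyte-condition cells and -4.54, -3.54, -4.70 and -5.88 in hepatocyte-condition cells. Primary hepatocytes read -3.39, -5.28, -4.71 and -4.53, and undifferentiated cells -4.60, -5.90, -5.48 and -6.65. All 15 other arrays were well above background with this probe, and their 4 groups overlapped.

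Sftpd was 1530-fold lower in cholangiocyte-condition cells than in primary cholangiocytes (-10.58 ± 0.72, adjusted p = 5.39e-07). Primary cholangiocytes were 706-fold higher than primary hepatocytes (9.46 ± 0.68, adjusted p = 6.39e-08) and 1600-fold higher than undifferentiated cells (10.64 ± 0.68, adjusted p = 2.01e-07). Probe 2 gave the same order of these pairs. It read 6.56 and 6.86 in primary cholangiocytes and was not well above background on any cholangiocyte-condition array, a difference of at least 16400-fold lower in cholangiocyte-condition cells. In hepatocyte-condition cells probe 2 read -2.61, -1.57, -7.34 and -6.81, so arrays 1 and 2 were far above arrays 3 and 4, while probe 1 kept them between -5.88 and -3.54.

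Tff3, intestinal trefoil factor, a small secreted peptide of mucous epithelia, was highest in hepatocyte-condition cells. It read 2.43, 4.72, 2.79 and 0.41 there, or 2510 to 53700 intensity units. It was not well above background on any of the 3 cholangiocyte-condition arrays (-9.30, -7.79 and -7.20) or the 4 undifferentiated arrays (-7.29, -8.22, -8.34 and -7.33). Primary cholangiocytes read -1.09 and -5.57, and primary hepatocytes -2.02, -3.44, -2.72 and -3.75. Every hepatocyte-condition array lay above every array of the other groups, and the 2 primary groups overlapped.

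Tff3 was at least 1100-fold higher in hepatocyte-condition cells than in undifferentiated cells (10.38 ± 0.95, adjusted p = 1.51e-05), where a bound sets the bright group against the dimmest signal called above background on the dim arrays. Cholangiocyte-condition cells were at least 907-fold lower than hepatocyte-condition cells (-10.68 ± 1.02, adjusted p = 2.09e-05). Hepatocyte-condition cells were 47.4-fold higher than primary hepatocytes (5.57 ± 0.95, adjusted p = 0.000166). Primary hepatocytes in turn were at least 23.3-fold higher than undifferentiated cells (4.81 ± 0.95, adjusted p = 0.000496). These calls passed under all alternatives run and lay on the same side within each slide that held both groups. Within slides 1, 3 and 5 hepatocyte-condition cells lay 12.94, 7.69 and 10.76 above undifferentiated cells. Within slides 1, 3 and 4 they lay 8.16, 4.15 and 4.81 above primary hepatocytes.

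In primary cholangiocytes Tff3 was above background on both arrays, and the bounds that follow use the mean of the 2. Cholangiocyte-condition cells were at least 15-fold lower (-4.77 ± 1.22, adjusted p = 0.014), and primary cholangiocytes were at least 18.3-fold higher than undifferentiated cells (4.46 ± 1.16, adjusted p = 0.015). Without primary cholangiocyte array 3 these differences were -2.52 (adjusted p = 0.214) and 2.22 (adjusted p = 0.265). With the slide as a fixed block they were -4.78 (adjusted p = 0.0549) and 4.68 (adjusted p = 0.0568).

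Tff2, spasmolytic polypeptide, the trefoil factor of gastric mucous neck cells and Brunner's glands, was dim and uneven. It read -8.10, -4.94 and -2.47 in cholangiocyte-condition cells, the first not above background, and -5.21, -1.57, -6.68 and -4.62 in hepatocyte-condition cells. It was above background on 1 of 2 primary cholangiocyte arrays (-6.00 and -7.44), on 1 of 4 primary hepatocyte arrays and on none of the 4 undifferentiated arrays (-8.71, -7.58, -8.25 and -8.36). Each hepatocyte-condition array lay above each undifferentiated array.

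Hepatocyte-condition cells were at least 7.92-fold higher in Tff2 than undifferentiated cells (3.71 ± 1.12, adjusted p = 0.0373). The call was lost, at adjusted p 0.0528 to 0.109, without any 1 of the 4 undifferentiated arrays or of hepatocyte-condition arrays 1, 2 and 4. It was also lost with normexp background correction (0.96, adjusted p = 0.175) and with quantile normalization (3.26, adjusted p = 0.0666). Within slides 1, 3 and 5 the difference was 6.02, 4.09 and 3.04. Cholangiocyte-condition cells lay 3.06 ± 1.21 above undifferentiated cells (adjusted p = 0.299), with 2 of 3 arrays above background.

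**Figure D2:**
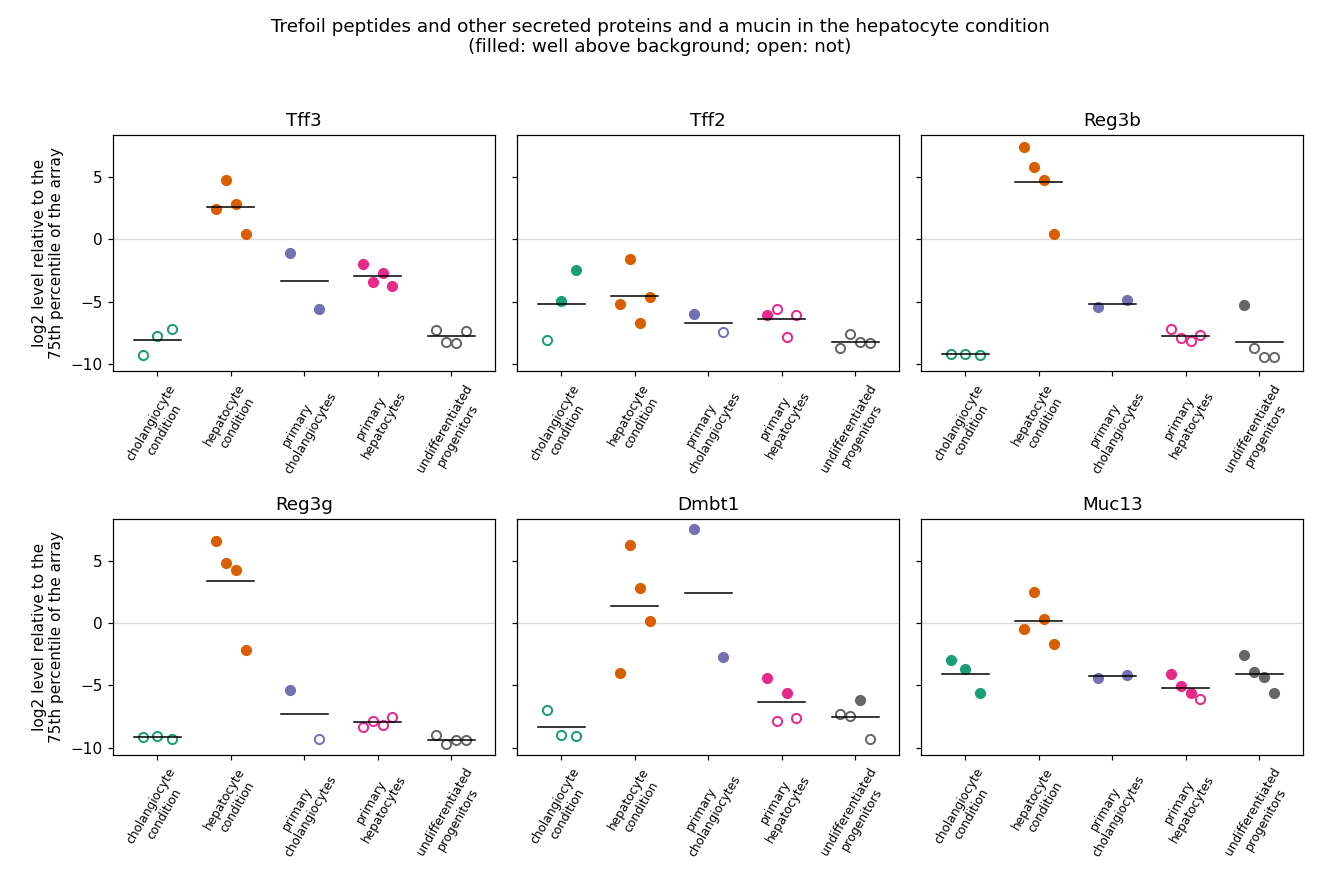
Level of Tff3, Tff2, Reg3b, Reg3g, Dmbt1 and Muc13 on every array, as log2 intensity relative to the array's 75th percentile, by group, with group means as black lines and open points not well above background. Reg3b reads 0.44 to 7.42 on hepatocyte-condition arrays and -9.32 to -9.19 on cholangiocyte-condition arrays, and Dmbt1 differs between the primary cholangiocyte arrays, at 7.50 and -2.77.

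Chga, chromogranin A, the acidic granule protein of neuroendocrine cells that is also reported in reactive bile ductules, was high in primary cholangiocytes alone. It read 5.51 and 4.58 there, or 64300 to 129000 intensity units. It read -6.37, -6.36 and -5.59 in cholangiocyte-condition cells and -6.17, -5.66, -6.44 and -6.68 in hepatocyte-condition cells. Primary hepatocytes read -5.44, -4.13, -5.60 and -4.81, and undifferentiated cells -6.42, -6.05, -6.51 and -8.25, the last not above background. The primary cholangiocyte arrays lay above all others, and the other groups overlapped their neighbours in the order of means.

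Chga was 2280-fold lower in cholangiocyte-condition cells than in primary cholangiocytes (-11.15 ± 0.60, adjusted p = 5.2e-08). Primary cholangiocytes were 1050-fold higher than primary hepatocytes (10.04 ± 0.57, adjusted p = 4.76e-09) and 3700-fold higher than undifferentiated cells (11.85 ± 0.57, adjusted p = 1.31e-08). Within slide 4, which held an array of each, cholangiocyte-condition minus primary cholangiocyte levels gave -10.95. Among the dim groups, hepatocyte-condition cells were 2.37-fold lower than primary hepatocytes (-1.25 ± 0.46, adjusted p = 0.0313), and primary hepatocytes were 3.52-fold higher than undifferentiated cells (1.82 ± 0.46, adjusted p = 0.00341). The first of these was lost, at adjusted p 0.0524 to 0.102, without hepatocyte-condition array 1, 3 or 4 or primary hepatocyte array 2 or 4, and with quantile normalization (-0.90, adjusted p = 0.0582). In intensity units hepatocyte-condition cells read 18.5 to 40.3, primary hepatocytes 16.3 to 50.9 and undifferentiated cells 6.88 to 38, so the unscaled readings overlapped in both comparisons. Primary hepatocytes against undifferentiated cells passed under all 21 alternatives run, median scaling and quantile normalization among them (1.11 to 2.07). The part of the lower 75th percentile of the primary hepatocyte arrays in these 2 comparisons was not tested beyond those alternatives.

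RefSeq's promoter table held 5 of the 8 members, on GRCm38.p6, a build whose coordinates do not compare with those of the probes. The 250 bases before the start of the Muc1 and Chga genes, the table's 2 members that stood high on both primary cholangiocyte arrays, are shown 5′ to 3′ with motif matches in capitals. The first lies at chr3:89228806-89229055 and the second at chr12:102554691-102554940, both on the plus strand.
Muc1 promoter: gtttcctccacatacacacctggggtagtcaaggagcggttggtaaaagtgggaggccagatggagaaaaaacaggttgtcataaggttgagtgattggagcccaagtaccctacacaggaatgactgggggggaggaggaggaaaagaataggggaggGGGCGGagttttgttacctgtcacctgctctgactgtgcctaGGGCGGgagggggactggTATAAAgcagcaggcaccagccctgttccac
Chga promoter: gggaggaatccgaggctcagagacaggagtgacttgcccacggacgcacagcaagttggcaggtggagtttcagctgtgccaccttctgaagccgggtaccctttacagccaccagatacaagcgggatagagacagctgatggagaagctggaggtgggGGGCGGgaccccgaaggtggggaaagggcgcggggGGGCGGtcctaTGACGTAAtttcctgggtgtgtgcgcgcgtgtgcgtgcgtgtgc

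The motifs searched on both strands were TATAAA (the TATA box), GGGCGG (the GC box), TGTTTAC (forkhead), TGACGTNA (cAMP response) and TTCCNGGAA (STAT). Muc1 held TATAAA starting 31 bases before the gene start and GGGCGG at 91 and 49 bases. Chga held GGGCGG at 90 and 55 bases and TGACGTNA at 44 bases, and none of these matches overlapped another. Of 32851 promoter windows of the same length, 12.4% held TATAAA, 32.7% held GGGCGG and 2.52% held TGACGTNA. A match is a description of the letters in this window. Of the other members in the table, Muc4 held TATAAA at 36 bases, Muc20 held TGTTTAC at 248 bases on the minus strand, as 3.17% of windows did, and Muc16 held none of the 5 motifs. TTCCNGGAA, found in 0.913% of windows, was in none of the 5 members.

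The 2 primary cholangiocyte arrays differed from each other in 5 of the 8 members by more than 2 on the log2 scale, and all 5 were higher on array 3. Muc4 probe 2 was 358-fold higher on array 3 and probe 1 120-fold. Muc20 probe 1 was 27.6-fold, Tff3 22.5-fold, Muc16 11.5-fold and Muc1 4.39-fold higher on array 3. Chga differed 1.9-fold and Sftpd probe 1 gave -0.51 for array 3 minus array 4. Of all genes kept, 1473 of 25977 were higher on array 3 by 2 or more and 1552 were lower, with a median of -0.14.

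Some other secreted genes also differed between these 2 arrays. The trefoil factor Tff1 read 5.55 on array 3 and -5.11 on array 4, the scavenger glycoprotein Dmbt1 read 7.50 and -2.77, and the intestinal membrane mucin Muc3 read 4.36 and -6.82. In the list of other duct lumen proteins 10 of 26 genes were higher on array 3 by 2 or more and 2 were lower (Slpi and Defb1). Of 12 other mucins 3 were higher and 1 lower, with a median of 0.05, and of 24 O-glycan enzymes 3 were higher and 1 lower. Hepatocyte markers were also higher on array 3, 6 of 12 by 2 or more, with a summed level of 22.5 there and 7.65 on array 4. Albumin (Alb) read -4.93 on array 3 and -9.64 on array 4, the second not above background. Of 11 stellate cell and fibroblast markers 5 were higher on array 3 by 2 or more and 2 lower, with a median of 1.48, while their summed level was 1.3 on array 3 and 9.39 on array 4. For array 3 minus array 4 the collagens Col1a1 and Col3a1 gave 5.69 and 5.33. The 2 lower markers, Vim and Thy1, gave -5.18 and -3.69. Cholangiocyte markers differed by a median of 0.16, with 1 of 14 higher on array 3 by 2 or more and 2 lower. Mesothelial markers differed by a median of -0.14, with 2 of 13 higher on array 3 by 2 or more and 4 lower. Their summed level of 170 to 187 rested mostly on mesothelin (7.40 and 7.47). The part of these markers in the members' difference was not tested.

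**Figure D3:**
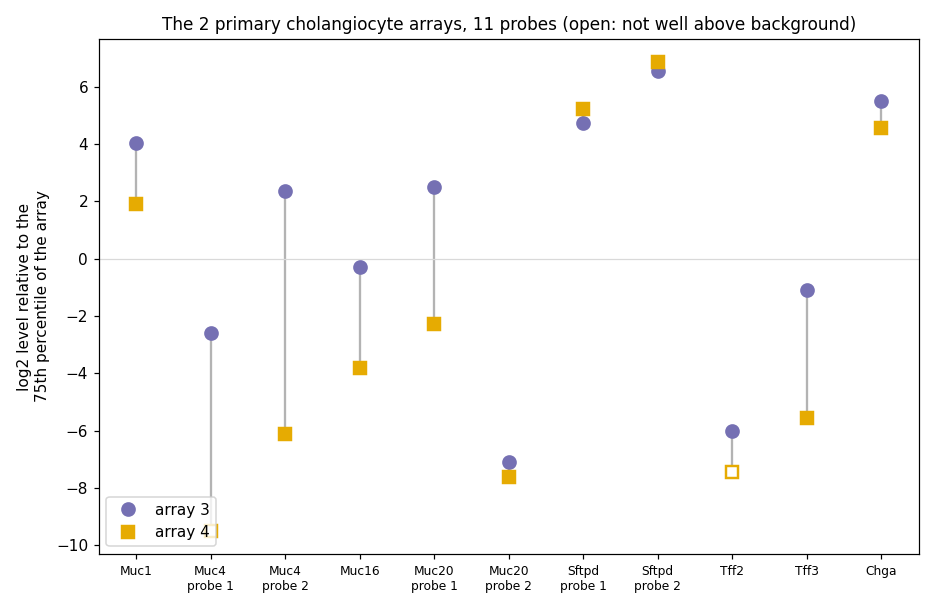
Level of each of the 11 probes on primary cholangiocyte array 3 (circles) and array 4 (squares), as log2 intensity relative to the array's 75th percentile. The pair lies within 1 unit for Chga and both Sftpd probes and is 8.48 apart for Muc4 probe 2.

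Across members, cholangiocyte-condition cells were lower than primary cholangiocytes in 6 of 8 genes (Muc1, Muc16, Muc20, Sftpd, Tff3 and Chga) and higher in none, where 19.6% of all genes were called in either direction and 7.62% were lower. The median difference over the 8 was -4.28, beside 0.17 over all genes. With primary cholangiocyte array 3 left out, 3 were called, Muc1, Sftpd and Chga. Tff2 lay 1.55 ± 1.44 higher (adjusted p = 0.539).

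Cholangiocyte-condition cells differed from undifferentiated cells in 0 of 8 members, where 1.38% of all genes were called by limma at adjusted p under 0.05. At an unadjusted p under 0.05 it was 1 of 8, Tff2, and 3331 of 25977 genes. The authors' deposited table also called 0 of 8. Against hepatocyte-condition cells, cholangiocyte-condition cells were lower in 2 members, Tff3 and Muc1, where 15.4% of genes were called and 7.01% were lower. Hepatocyte-condition cells were higher than undifferentiated cells in 2, Tff3 and Tff2, where 15.3% were called and 7.65% were higher. Against primary hepatocytes they were higher in Tff3 and lower in Muc16 and Chga, where 59.7% were called, 26.1% higher and 33.6% lower.

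Primary cholangiocytes were higher than primary hepatocytes in 4 members (Muc1, Muc20, Sftpd and Chga), where 49.6% of genes were called and 21.7% were higher, and higher than undifferentiated cells in 6 (these 4, Muc16 and Tff3), where 19% were called and 8.52% were higher. Primary hepatocytes were higher than undifferentiated cells in 4 (Muc1, Muc16, Tff3 and Chga), where 64.2% were called and 37.6% were higher. That of Muc1 was 1.40 ± 0.58 (adjusted p = 0.0465) with overlapping groups, and it was lost at adjusted p 0.0626 to 0.117 without any 1 undifferentiated array or primary hepatocyte array 1, 2 or 4. It was also lost with median scaling (0.95, adjusted p = 0.15) and quantile normalization (0.83, adjusted p = 0.234). All 9 endothelial and all 3 red blood cell markers were also higher in primary hepatocytes than in undifferentiated cells. The summed endothelial level was 11.3 to 14.1 against 1.27 to 2.33. Of 11 stellate cell and fibroblast markers 7 were higher and 1 lower, while their summed level was 1.24 to 3.36 against 59.5 to 77.4. The part of these cell types in the members' differences was not tested. Comparisons with a group in common share its arrays.

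**Figure D4:**
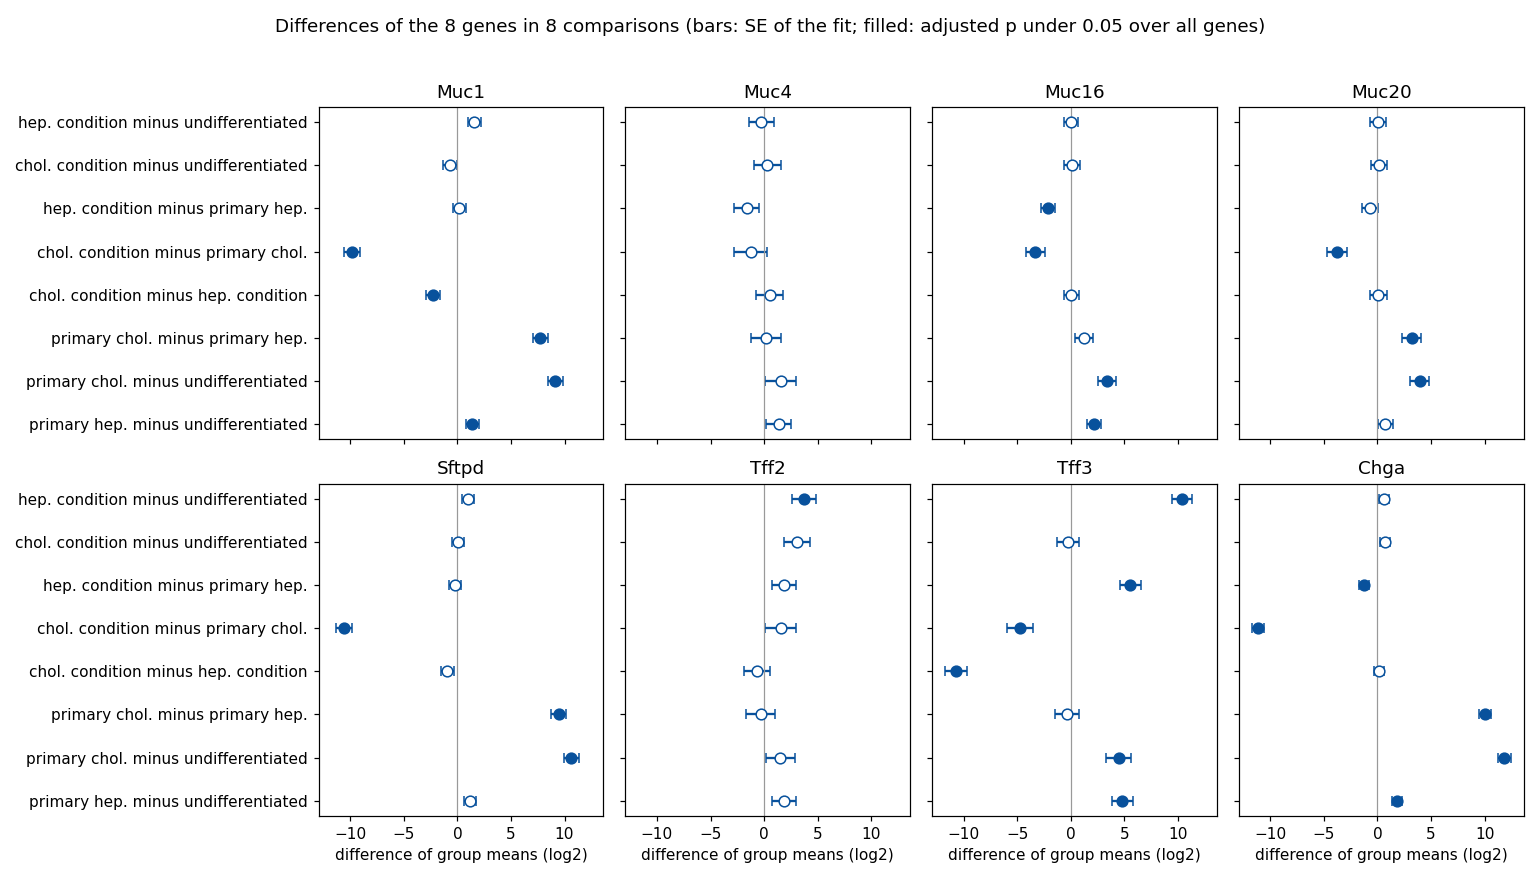
Log2 difference of each member in 8 comparisons, first-named group minus second, with standard errors as bars; filled points have an adjusted p under 0.05. Chga, Sftpd and Muc1 lie below -9 in cholangiocyte-condition cells against primary cholangiocytes, and Tff3 lies above 10 in hepatocyte-condition cells against undifferentiated cells.

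The gap between the cholangiocyte and hepatocyte sides was different in culture and in primary cells for 5 of 8 members, all lower in culture, where 37.8% of genes passed this test and 15.6% were lower. The difference of the gaps was -10.02 ± 0.94 for Muc1 (adjusted p = 1.92e-06), -10.39 ± 0.91 for Sftpd (adjusted p = 1.01e-06) and -9.91 ± 0.75 for Chga (adjusted p = 2.56e-07). In primary cells the gap, cholangiocytes minus hepatocytes, was 7.74 for Muc1, 9.46 for Sftpd and 10.04 for Chga. In culture it was -2.28 for Muc1, -0.93 for Sftpd and 0.13 for Chga, the last 2 not called. The call of Muc1, in the opposite direction, passed under 13 of the 20 alternatives run. For Tff3 the value was -10.33 ± 1.54 (adjusted p = 0.000129), made of -10.68 for cholangiocyte-condition minus hepatocyte-condition cells and -0.35 for primary cholangiocytes minus primary hepatocytes. Muc20 passed narrowly (-3.12 ± 1.17, adjusted p = 0.0499), and did not without primary cholangiocyte array 3 (-0.72, adjusted p = 0.412).

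Other genes of mucus were read from lists chosen with earlier results known. Among 26 other duct lumen secreted proteins, 8 rose in hepatocyte-condition cells over undifferentiated cells and none fell, where 15.3% of all genes were called. With each array of the 2 groups left out in turn, 6 to 7 of the 26 were called. The antimicrobial lectins Reg3b and Reg3g read 7.42, 5.76, 4.77 and 0.44, and 6.60, 4.83, 4.22 and -2.20, on the 4 hepatocyte-condition arrays. Reg3b rose by 12.83 ± 1.19 (adjusted p = 1.66e-05), Reg3g by 12.74 ± 1.38 (adjusted p = 5.64e-05, at least 1930-fold) and Dmbt1 by 8.88 ± 2.13 (adjusted p = 0.0116). Reg3g was not well above background on any cholangiocyte-condition, primary hepatocyte or undifferentiated array. Tff3 was lowest of the 4 hepatocyte-condition arrays on array 4, where both Reg3 genes were lowest too, but highest on array 2, where Reg3b was not. Albumin (Alb) on the same 4 arrays read 7.63, -4.74, 7.59 and -3.64, an order shared by neither.

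Among 12 other mucins, 2 rose in hepatocyte-condition cells over undifferentiated cells, a share near the 15.3% called over all genes. Muc13, a transmembrane mucin of the gut, rose by 4.26 ± 0.85 (adjusted p = 0.00425) and Prg4, a mucin-like lubricin that liver cells also secrete, by 5.14 ± 0.73 (adjusted p = 0.000472). Cholangiocyte-condition cells were lower than hepatocyte-condition cells in the same genes, Muc13 at -4.26 ± 0.92 (adjusted p = 0.00657) and Prg4 at -6.86 ± 0.79 (adjusted p = 9.54e-05). Prg4 was brighter still in primary hepatocytes, at 1.08 to 2.80. Muc5ac, the gel-forming mucin of airway and stomach, read 0.50 and -3.96 in primary cholangiocytes and -4.69, -3.80 and -4.50 in cholangiocyte-condition cells.

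Enzymes that build and extend mucin O-glycans numbered 24. In cholangiocyte-condition cells against primary cholangiocytes 2 were higher and 9 lower, where 19.6% of all genes were called. The fucosyltransferase Fut2, not well above background on any cholangiocyte-condition array, was at least 116-fold lower (adjusted p = 0.000261), and the chain initiator Galnt14 was higher (6.24 ± 1.22, adjusted p = 0.00278). Gcnt3, which makes the core branches of mucin glycans, lay at -4.67 ± 1.24 (adjusted p = 0.0167) and lost its call without primary cholangiocyte array 3 (adjusted p = 0.128), when 7 of the 24 were called. Galnt14 was also the one of the 24 that passed in cholangiocyte-condition over undifferentiated cells (5.93 ± 1.02, adjusted p = 0.011), though not without cholangiocyte-condition array 2 or 3 (adjusted p = 0.0549 for each). Galnt3, another initiator, was at least 671-fold higher in primary cholangiocytes than in primary hepatocytes (adjusted p = 1.22e-10), where no array was well above background, and it read 2.30, 2.57 and 2.38 in cholangiocyte-condition cells.

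Secretory cell factors and mucin folding genes numbered 17. In cholangiocyte-condition cells against primary cholangiocytes 2 were higher and 6 lower, where 19.6% of all genes were called, and without primary cholangiocyte array 3 only 2 of the 17 were called. The mucin-binding protein Fcgbp of mucus gels was lower (-7.14 ± 1.01, adjusted p = 0.000261). The goblet cell factor Spdef (-3.40 ± 0.82, adjusted p = 0.00974) and the epithelial factor Ehf (-5.70 ± 1.39, adjusted p = 0.0106) lost their calls without that array, at adjusted p 0.144 and 0.0552. Xbp1, the secretory stress factor, was the one of the 17 that rose in hepatocyte-condition cells over undifferentiated cells (1.69 ± 0.23, adjusted p = 0.000286). It read 6.11, 6.06, 5.58 and 5.11 there, above all 4 undifferentiated arrays.

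Among the other duct lumen proteins, 8 of 26 were lower and 1 higher in cholangiocyte-condition cells than in primary cholangiocytes, where 19.6% of all genes were called. Lactoferrin, Ltf, an iron-binding protein of secretions, read -6.13, -6.42 and -7.64 in cholangiocyte-condition cells, against 7.35 and 3.34 in primary cholangiocytes (-12.08 ± 1.13, adjusted p = 7.74e-06). Osteopontin, Spp1, was the one that was higher, at 4.26 ± 0.57 (adjusted p = 0.000173). Dmbt1, at least 747-fold lower (adjusted p = 0.0141), lost its call without primary cholangiocyte array 3 (adjusted p = 0.218), when 5 of the 26 were called. The antiprotease Slpi was higher in primary cholangiocytes than in primary hepatocytes by 8.87 ± 0.75 (adjusted p = 2.88e-07).

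Chga was set beside 20 granins and neuroendocrine genes. In cholangiocyte-condition cells against primary cholangiocytes 3 were higher and 1 lower, near the 19.6% called over all genes, with a median of 0.08 beside 0.17 over all genes. The granule enzyme Cpe was higher by 2.02 ± 0.38 (adjusted p = 0.00227), and the neuroendocrine transcription factor Insm1 by 7.36 ± 1.69 (adjusted p = 0.00762, or 0.114 without primary cholangiocyte array 3). Insm1 read 0.68, 1.20 and -1.09 in cholangiocyte-condition cells, against -9.52 and -4.67 in primary cholangiocytes, the first not above background. In primary cholangiocytes over primary hepatocytes 4 of the 20 were higher and 6 lower, a share near the 49.6% called over all genes. Among the higher ones were Cpe (9.27 ± 0.36, adjusted p = 1.22e-10) and the granin Vgf (6.36 ± 0.78, adjusted p = 1.06e-05). Vgf also rose in hepatocyte-condition cells over undifferentiated cells (2.86 ± 0.63, adjusted p = 0.00748).

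Among 14 partners of mucins and trefoil peptides, 1 was higher and 2 lower in cholangiocyte-condition cells than in primary cholangiocytes (19.6% of all genes were called). In hepatocyte-condition cells over undifferentiated cells 1 rose and 1 fell (15.3% of all genes were called). Both shares are near those over all genes. The scavenging chemokine receptor Ackr3 was the one that rose (5.17 ± 0.90, adjusted p = 0.00167). Mesothelin, Msln, the Muc16 partner, was at least 12200-fold higher in primary cholangiocytes than in primary hepatocytes (adjusted p = 2.16e-10), where no array was well above background. Msln read 7.01, 6.71 and 7.40 in cholangiocyte-condition cells, against 7.40 and 7.47 in primary cholangiocytes. Sirpa, a receptor that surfactant protein D binds, read -3.10 and -1.82 in primary cholangiocytes and was not well above background on any cholangiocyte-condition array, which made it at least 28.5-fold lower there (adjusted p = 7.25e-06). It was also above background on all 4 primary hepatocyte arrays and on none of the hepatocyte-condition or undifferentiated arrays. Leukocyte and Kupffer markers, the cells best known for Sirpa, had summed levels of 10.6 to 19.6 in cholangiocyte-condition cells and 14.4 to 16.8 in primary cholangiocytes. The sums were 14.4 to 20.8 in primary hepatocytes, 10.1 to 12.2 in hepatocyte-condition cells and 9.66 to 14.3 in undifferentiated cells. Of these 12 markers 9 were higher and 2 lower in primary hepatocytes than in undifferentiated cells, where 64.2% of all genes were called. In hepatocyte-condition cells against primary hepatocytes 1 was higher and 10 lower, where 59.7% were called. In cholangiocyte-condition cells against primary cholangiocytes 0 were higher and 1 lower. The part of these cells in the Sirpa differences was not tested.

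The genes whose levels ran closest to each member over the 17 arrays are given by Pearson's r, a description in which the arrays of a group share their cell source. For Chga they were Cldn7 (0.991), a tight junction claudin, Tnk1 (0.985) and Wfdc1 (0.984). For Sftpd they were Cldn7 (0.973), Gpx2 (0.970) and Igfbpl1 (0.969), and for Muc1 they were Rhof (0.977), Prss22 (0.965) and Atp10b (0.953). All 3 of these members take their range from the 2 primary cholangiocyte arrays. For Muc20 they were Tmem54 (0.959), Duoxa2 (0.948) and Spdef (0.946). Tff3 ran closest to Gm4183 (0.969), Sema6b (0.932) and Atp2a2 (0.931). The highest r was 0.882 for Tff2 (Actg2) and 0.919 for Muc4 (Olfr1306). For Muc16 it was 0.925, for a gene that the files name only by a transcript accession, followed by 1700010I14Rik (0.92).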

How the data were processed

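RNA was amplified with WT-Ovation Pico, labelled with Cy3 and hybridised to one-colour Agilent arrays, per the labels' protocols. The processed intensity was deposited as Feature Extraction output, version 10.5.1.1 per the file headers and 9.53 per the submitters' processing notes. How Feature Extraction corrected the background was taken as deposited. The authors' deposited table was used as an alternative only. Per the file headers it holds signed fold changes, scores in which a negative sign marks the lower group, and false discovery rates of the authors' own comparisons and a call for each group, with the pooling of arrays not stated.

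Control spots (1377 of 44397) and 135 probes with outlier flags were left out, and spots of a probe were averaged. Log2 intensity was taken relative to each array's 75th percentile. Genes with a probe well above background on at least 2 of 17 arrays were kept, 1 probe a gene (the highest mean). limma 3.58.1 in R 4.3.3 fitted 1 mean per group over all arrays, with Benjamini-Hochberg adjustment over 25977 genes, two-sided. A bound sets the bright group's mean against, per dim array, the higher of the probe's own level and the dimmest level called above background. The code was tested on simulated data.

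Members and gene lists were chosen with earlier results of these data known. Named are all members, up to 3 list genes per direction and comparison by size among those that passed, defining list genes and the 3 genes most like a member. The number of arrays limits the precision. Same-numbered arrays deviated together in every pair between cholangiocyte-condition and undifferentiated cells (r 0.39, 0.28 and 0.32). Between primary cholangiocytes and primary hepatocytes they did so weakly (r 0.14 and 0.048), and each other comparison held a negative r. Slides were tried as blocks. Settings other than the main one are described with the limits.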

Additional observations from a re-analysis of the deposited data

Results flagged for a closer look

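Muc20 probe 2 read -6.39 on hepatocyte-condition array 3, apart from the other 3 arrays of its group by more than Dixon's critical share of the group's range. It was the 1 flag among 33 groups of 4 arrays tested, and chance flags about 1 in 20.

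The gap between cholangiocyte-condition and hepatocyte-condition cells differed from that between primary cholangiocytes and primary hepatocytes by -10.02 for Muc1, -3.12 for Muc20, -10.39 for Sftpd, -10.33 for Tff3 and -9.91 for Chga, by limma's contrast of the 2 gaps. For Muc1, Sftpd, Tff3 and Chga it passed under all 25 alternatives run, and for Muc20 under 8.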

How the results depend on the processing

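Calls of Muc1, Sftpd and Chga in primary cholangiocytes against the 3 other groups tested, and of Tff3 in hepatocyte-condition cells, passed under all alternatives run. Members called moved as follows. In hepatocyte-condition against undifferentiated cells, 1 was called with normexp or quantile normalization. There the authors' deposited table called Muc1 (false discovery rate 3.69%) besides Tff2 and Tff3. Against primary hepatocytes it was 5 with normexp and 6 in the authors' deposited table. In cholangiocyte-condition against hepatocyte-condition cells it was 1 with normexp, the slide as a fixed block or the compared groups only. Against primary cholangiocytes it was 3 with the compared groups only and 3 in the authors' deposited table. In primary cholangiocytes against undifferentiated cells it was 3 with the compared groups only. Muc16 and Muc20 were not called there in the authors' deposited table (false discovery rate 5.38% for each). In primary hepatocytes against undifferentiated cells it was 7 with normexp and 7 in the authors' deposited table. Leaving out each array in turn gave 1 to 2 (hepatocyte-condition against undifferentiated), 2 to 3 (against primary hepatocytes), 0 to 0 (cholangiocyte-condition against undifferentiated), 1 to 2 (against hepatocyte-condition), 3 to 7 (against primary cholangiocytes), 4 to 6 (primary cholangiocytes against primary hepatocytes), 3 to 7 (against undifferentiated), 3 to 4 (primary hepatocytes against undifferentiated) and 4 to 6 (difference of the gaps). With 1 primary cholangiocyte array left, its spread is assumed to be like that of other groups. Values that changed sign were Muc4 in cholangiocyte-condition cells against primary cholangiocytes (-4.71 to 2.19), Muc20 in primary cholangiocytes against primary hepatocytes with the other probe (-0.15), chosen after seeing the data, and Muc1 in primary hepatocytes against undifferentiated cells within slide 2 (-0.21). With the replicate block, 0 members were called in the paired comparison of cholangiocyte-condition with undifferentiated cells, and no other count of members changed. The cause of these changes was not tested.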

Other observations

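Tff1, the gastric trefoil factor and no member here, read -6.29, -1.43 and 0.11 in cholangiocyte-condition cells, -5.44, -5.25, -9.59 and -6.56 in hepatocyte-condition cells, and 5.55 and -5.11 in primary cholangiocytes. It read -3.22, -7.27, -4.43 and -2.70 in undifferentiated cells, and was not well above background on any primary hepatocyte array. The siderophore-binding lipocalin Lcn2 read 1.97, 3.27 and -2.22 in cholangiocyte-condition cells, 7.82, 6.89, 7.83 and 5.60 in hepatocyte-condition cells, and 6.38 and 6.23 in primary cholangiocytes. Primary hepatocytes read 3.24, 1.14, 0.27 and 0.17 for Lcn2 and undifferentiated cells 2.54, 2.51, 0.16 and -0.84. Both genes were picked after their values were seen.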
